A study of Mus musculus with 16 samples.

Results

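The comparison described here sets macrophage and dendritic cell progenitors (MDP) of mouse bone marrow against MP cells, from which they differ on the labelled gates by the surface protein CD115. MicroRNAs (miRNAs) had been measured on 1-colour Agilent arrays in 8 sorted cell populations, 2 arrays per population, and the comparison uses 4 of the 16 arrays, 2 of MDP and 2 of MP. The arrays were taken by sample title, and the comparison was chosen with earlier results of these data known. MDP were CD117+ CD115+ CD135+ and MP were CD117+ CD115- CD135+, and both were negative for Sca-1, Ter-119, NK1.1, Gr1, B220, CD11b, CD11c, CD3, CD4 and CD8α. Common dendritic cell progenitors (CDP), which are CD117 low CD115+ CD135+ and negative for the same lineage markers, serve below as the neighbouring population. All 3 populations came from femur and tibia of female C57Bl/6 mice aged 6 weeks, and each replicate was RNA pooled from 15 animals and sorted without culture within 5 h. The fit and some levels below also use the 5 other populations, likewise from mice aged 6 weeks. Gr1+ monocytes and plasmacytoid dendritic cells came from bone marrow, in pools of 5 animals. CD4+, CD8+ and CD4-CD8- dendritic cells came from spleen, in pools of 8 animals. The labels do not spell out MP. Every replicate 1 had been hybridised to design 1 of the array and every replicate 2 to design 2, so each difference was taken within a design first and then averaged over both.

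CD115 is the receptor for macrophage colony-stimulating factor, CD117 is Kit, the receptor for stem cell factor, and CD135 is Flt3, whose ligand drives dendritic cell development. In the usual scheme of marrow differentiation, MDP still give rise to both monocytes and dendritic cells, whereas CDP are restricted to dendritic cells. A miRNA pairs with target transcripts mainly through its seed, bases 2 to 8 from its 5′ end, and lowers their translation and stability, so miRNAs with the same seed share many targets. Levels of early progenitor miRNAs, such as those encoded within the Hox clusters and miR-126, are known to decline along myeloid differentiation, and miR-223 is the best known miRNA of granulocytes and monocytes.

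The mature sequences below are those of the miRNAs on which the comparison turns, from RefSeq with the GRCm38.p6 assembly, 5′ to 3′, with the seed in capitals. The first is the only miRNA that was higher in MDP by the test, and the following 6 include the largest falls and members of the clusters described below.
miR-223: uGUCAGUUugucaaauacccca
miR-196b: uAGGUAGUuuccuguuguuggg
miR-130a: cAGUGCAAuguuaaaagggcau
miR-126-3p: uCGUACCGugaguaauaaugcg
miR-125b-5p: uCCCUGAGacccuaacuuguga
miR-99a: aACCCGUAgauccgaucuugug
miR-322: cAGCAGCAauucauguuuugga
The next 3 are the let-7 family members that were lower in MDP. They share the seed and differ outside it, let-7b from let-7c at 1 position and let-7c from let-7e at 2, so that array probes may not separate the members fully.
let-7b: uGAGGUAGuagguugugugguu
let-7c: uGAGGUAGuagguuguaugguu
let-7e: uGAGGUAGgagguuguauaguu
The last pair, from the miR-29 family, differs at 1 position and carries the same caution.
miR-29a: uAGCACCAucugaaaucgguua
miR-29c: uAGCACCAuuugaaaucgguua

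Of the 604 mouse miRNAs on both designs, 128 and 116 were detected on the MDP arrays, against 133 and 166 on the MP arrays. The range over all 16 arrays was 116 to 174, so MDP replicate 2 had the fewest. The share of spots well above background was 17.2 and 17.4 percent for MDP, against 19.1 and 23.6 percent for MP, with 0 spots saturated. The factor by which each array was scaled was 455 and 333 for MDP, against 435 and 533 for MP. Levels are given throughout as log2 of the processed signal over the 75th percentile of the 88 miRNAs that were detected on all 16 arrays, and differences as MDP minus MP on that log2 scale with their standard error. Having only 2 arrays a population limits the precision. Levels of different miRNAs are not set against each other, because their probes differ.

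Myeloid miRNAs were present in both populations, and markers of stromal, muscle and epithelial cells were nearly absent. Of 8 myeloid miRNAs, 7 and 7 were detected on the MDP arrays, against 7 and 8 on the MP arrays, with a summed signal, relative to the scaling percentile, of 15.2 and 17.1 in MDP, against 12.7 and 11.0 in MP. Of 16 stromal, muscle and epithelial miRNAs, 0 were detected on the MDP arrays, against 0 and 1 on the MP arrays, the 1 being miR-203. Erythroid miRNAs set MP replicate 1 apart. Their summed signal was 0.0246 and 0.0289 in MDP, against 0.536 and 0.0295 in MP. The array holds no probes for CD115 or the other sorted proteins, so the gates themselves could not be checked.

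For the test, 175 miRNAs qualified by detection on both arrays of any of the 8 populations, and 18 of them differed between MDP and MP at an adjusted p under 0.05 (10.3 percent of those tested, limma with the array design as a block and Benjamini-Hochberg adjustment). In MDP, 17 of them fell (9.71 percent) and 1, miR-223, rose (0.571 percent). At an unadjusted p under 0.05 there were 44 (25.1 percent). The difference was below 0 within both designs for 65 of the tested miRNAs (37.1 percent) and above 0 within both for 24 (13.7 percent). Both MDP levels lay under both MP levels for 49 (28.0 percent) and over them for 11 (6.29 percent). The median difference over all 175 was -0.08. In RNA of sorted pools, fewer cells that hold a miRNA and less of it per cell cannot be told apart.

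The number of calls depended on the scaling, on the arrays fitted and on single arrays. Scaling by the 75th percentile over all miRNAs gave 0 calls (21 at an unadjusted p under 0.05), quantile normalization gave 2 higher and 5 lower, and scaling by the median of the always detected miRNAs gave 1 higher and 3 lower. Every call was also lost after normexp background correction (5 at an unadjusted p under 0.05), in a fit of only the MP and MDP arrays (38, smallest adjusted p = 0.136 by limma), in a fit of only the MP, MDP and CDP arrays (40) and when all 604 miRNAs were tested (41). Without MDP replicate 1 there were 0 calls (36 at an unadjusted p under 0.05), without MDP replicate 2 there were 2, without MP replicate 1 there were 15 and without MP replicate 2 there was 1. Of the 18 called miRNAs, 17 kept their sign in every one of the 16 alternatives that measured them (15 for let-7e), the exception being miR-450a-5p.

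**Figure D1:**
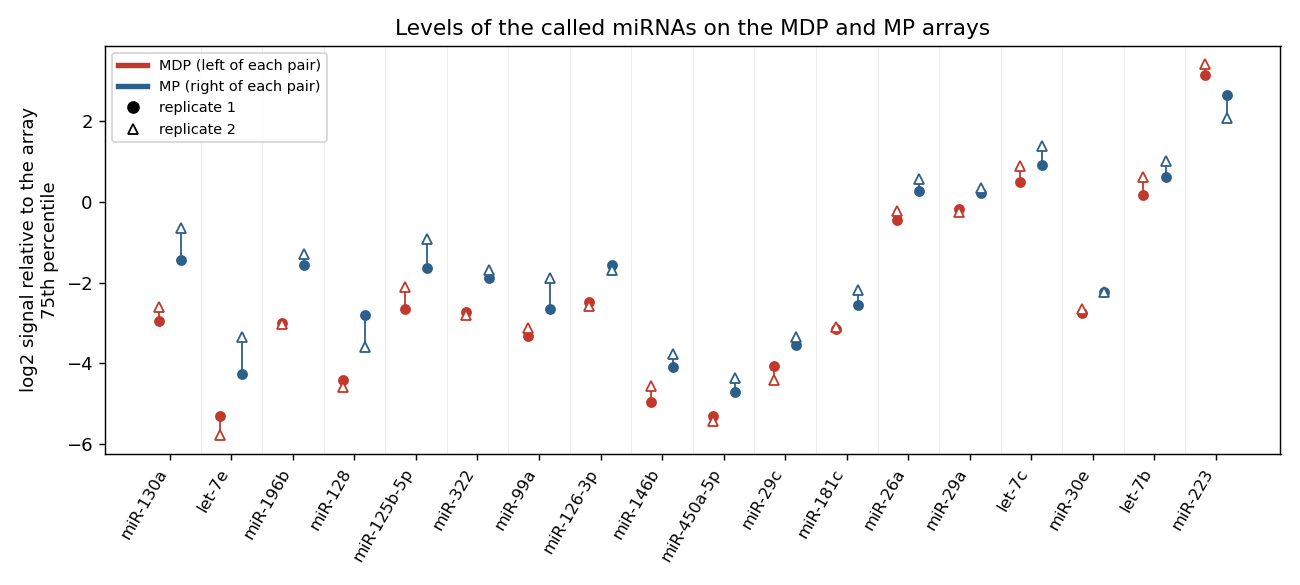
Log2 level of each called miRNA on the 2 MDP and the 2 MP arrays, relative to the 75th percentile of the always detected miRNAs; each point is 1 array, MDP left and MP right within each miRNA. The MDP points of miR-223 lie above its MP points and those of the 17 other miRNAs lie below, except that the higher MDP point and the lower MP point of let-7b lie at the same height.

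Of the miRNAs encoded within the Hox clusters, 2 of 4 were tested and 1 fell, against 9.71 percent of all tested miRNAs. miR-196b, encoded between Hoxa genes and known to repress Hox transcripts, had levels of -3.0 and -3.04 in MDP, against -1.55 and -1.29 in MP. The groups did not overlap, and the MDP arrays lay within 0.1 of each other. The difference of -1.60 ± 0.22 (adjusted p = 0.00779), a level in MP 3.03 times that in MDP, was called in 9 of the 16 alternatives, where it ran from -1.88 to -0.87. Its probes map to chr6:52180098-52180116 on the minus strand of mm9, the build of the array files. miR-10a, the other tested miRNA of the 4 in this list and encoded within the Hoxb cluster, had -2.85 and -2.31 in MDP, against -1.90 and -0.99 in MP. Its groups did not overlap either, but its difference of -1.13 ± 0.40 missed the threshold (adjusted p = 0.121). The list's median was -1.37, against -0.08 over all tested miRNAs.

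miR-130a, which is known to be high in stem and early progenitor cells of blood, had the largest fall among miRNAs detected on all 4 arrays. Its level was -2.96 and -2.60 in MDP, against -1.44 and -0.64 in MP. Both MDP arrays lay more than 1 below the lower MP array, and the difference was -1.74 ± 0.34 (adjusted p = 0.0271), with MP 3.34 times as high. Its relatives with the same seed, miR-130b (-0.18 ± 0.14), miR-301a (0.03 ± 0.24) and miR-721 (-0.47 ± 0.52), were not called. The family list leaves out miR-721. The median of the 3 tested members of that list, -0.18, turned positive under the scaling by all miRNAs (0.10), quantile normalization (0.03) and median scaling (0.12).

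miR-126-3p, a regulator of quiescence in blood stem cells, had levels of -2.48 and -2.59 in MDP, against -1.56 and -1.68 in MP. The within-design differences were both -0.92, giving -0.92 ± 0.23 (adjusted p = 0.0375). It kept its sign in all 16 alternatives and its call in 3. It was not detected on either array of Gr1+ monocytes, CD4+ dendritic cells (DC), CD8+ DC or CD4-CD8- DC.

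All 4 tested miRNAs listed for the clusters of miR-99, miR-125 and let-7 members fell in MDP, against 9.71 percent of all tested. The other 3 of the 7 listed were not detected often enough to be tested. These clusters are expressed in stem and progenitor cells, and miR-125b expands them when overexpressed in mouse marrow. miR-125b-5p had levels of -2.64 and -2.12 in MDP, against -1.64 and -0.92 in MP, a difference of -1.10 ± 0.28 (adjusted p = 0.0386). miR-99a had -3.33 and -3.12 in MDP, against -2.66 and -1.89 in MP, a difference of -0.95 ± 0.21 (adjusted p = 0.0271). let-7c lies next to miR-99a on chromosome 16 in GRCm38.p6 and, from another copy, next to let-7b on chromosome 15. Its level was 0.49 and 0.89 in MDP, against 0.93 and 1.38 in MP, so the groups came close, and the difference was -0.47 ± 0.10 (adjusted p = 0.0271). let-7e was not well above background in MDP, at signals of 4.4 and 4.5, against 22.5 and 51.9 in MP. It was at least 1.83-fold lower in MDP (adjusted p = 0.0271), a bound that sets the dim arrays at the lowest signal of a detected probe. Because both MDP values lay at the floor, the spread behind that p may be too small, and with the floor raised 2-fold let-7e was not called (adjusted p = 0.257). miR-125a-3p, which the list leaves out, lies 489 bp from let-7e on chromosome 17 and was also tested. Its difference was 0.27 on design 1, -0.22 on design 2 and 0.02 over both, without a call. It was detected on neither MP array. Its MP levels of -5.27 and -5.56 lay near the floor, so a fall could hardly have been seen. The median of the 4 listed members was -1.03 and stayed below 0 under the 3 other scalings. However, the number called was 0 under the scaling by all miRNAs, 0 under quantile normalization and 1 under median scaling.

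Of the X-linked cluster of miR-322, miR-503 and miR-450a, 3 of 7 members were tested. In MDP, 2 of them fell, against 9.71 percent of all tested miRNAs. The number called was 0 under the scaling by all miRNAs, 0 under quantile normalization and 1 under median scaling. Both miR-322 and miR-503 are known to slow the cell cycle. miR-322, the mouse counterpart of miR-424 and a carrier of the miR-15 and miR-16 seed, had levels of -2.72 and -2.80 in MDP, against -1.90 and -1.70 in MP. The MDP arrays differed by less than 0.1, and the difference of -0.96 ± 0.14 had an adjusted p of 0.00779. Its probes map to chrX:50407455-50407475 on the minus strand of mm9. miR-450a-5p was detected on both MP arrays and on neither MDP array, and was at least 1.12-fold lower in MDP (adjusted p = 0.0375). It was not called with the floor raised 2-fold, and it was the 1 call that lost its sign, at 0.02 after normexp background correction. miR-503, the third tested member, was at the floor on 3 of the 4 arrays and was not called (-0.46 ± 0.24, and 0.14 after normexp). The list's other 4 members were not tested. miR-15a, miR-15b and miR-16, which share the seed of miR-322, had differences between -0.24 and -0.15 and were not called. They lay above 0 under the scaling by all miRNAs and median scaling. miR-195, also tested in the miR-15 and miR-16 list, was at the floor on all 4 arrays.

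**Figure D2:**
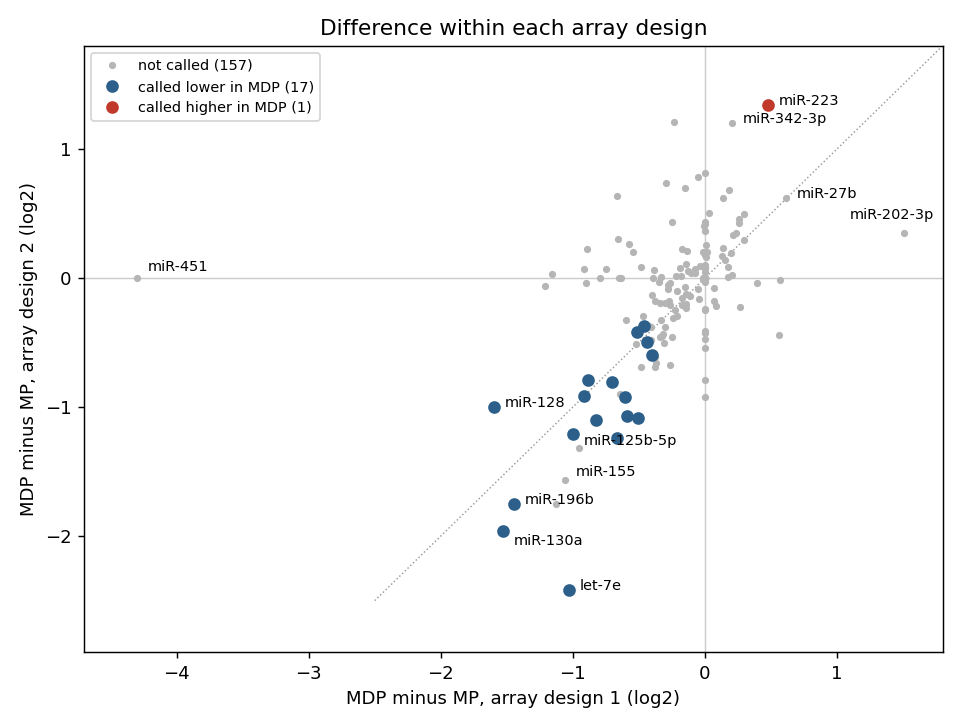
Difference between MDP and MP on array design 1 (horizontal axis) against that on design 2 (vertical axis), log2, 1 point per tested miRNA. Called miRNAs are coloured, and names are given for some called and some uncalled miRNAs. Called points other than miR-223 lie in the lower left quadrant, and miR-451, which was not called, lies far to the left at -4.30 on design 1 and 0.00 on design 2.

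In the let-7 family, 3 of the 9 tested members fell, against 9.71 percent of all tested miRNAs. A difference below 0 within both designs was found for 8, against 37.1 percent of all, and 1, miR-98, was above 0 within both. The family is known to restrain proliferation genes, among them Hmga2 and Ras genes. let-7b had levels of 0.17 and 0.63 in MDP, against 0.63 and 1.00 in MP, a difference of -0.42 ± 0.10 (adjusted p = 0.0375). Its 4 levels overlapped by less than 0.01, as MDP replicate 2 lay just above MP replicate 1, so the fall is seen within each design and not across them. The 6 members that were not called had differences between -0.33 (let-7a) and 0.04 (miR-98). The family's median of -0.27 was 0.00 under scaling by all miRNAs and 0.03 under median scaling, so no direction holds for the family as a group.

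Of the miR-29 family, known for repressing collagens and DNA methyltransferases, 2 of 3 members fell, against 9.71 percent of all tested miRNAs. miR-29a had levels of -0.17 and -0.24 in MDP, against 0.22 and 0.36 in MP, a difference of -0.50 ± 0.12 (adjusted p = 0.0375). miR-29c had -4.06 and -4.42 in MDP, against -3.55 and -3.34 in MP, a difference of -0.80 ± 0.18 (adjusted p = 0.0271). The groups of both miRNAs were apart. miR-29b, which is encoded beside each of them in GRCm38.p6, was at -0.59 ± 0.23 and was not called (adjusted p = 0.148). The median of -0.59 stayed below 0 under the other 3 scalings, at -0.39 to -0.29, but 0 of the 3 members were called under each. Of the 16 alternatives, miR-29a was called in 2 and miR-29c in 3.

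Among 5 members of the miR-30 family, miR-30e alone was called, while 9.71 percent of all tested miRNAs fell. Its level was -2.75 and -2.65 in MDP, against -2.24 and -2.23 in MP (-0.46 ± 0.12, adjusted p = 0.0499). All 5 differences were below 0 within both designs, against 37.1 percent of all tested miRNAs, but the family's median of -0.40 became 0.03 under quantile normalization, where miR-30b turned to 0.24 and miR-30c and miR-30d also turned. miR-26a, a miRNA known to restrain growth through cell cycle genes and Ezh2, fell to -0.44 and -0.23 in MDP, against 0.27 and 0.57 in MP. Its groups did not overlap, and the difference was -0.75 ± 0.16 (adjusted p = 0.0271). miR-26b has the same seed and was at -0.51 ± 0.15 (adjusted p = 0.0678).

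Of the remaining falls, miR-128 had levels of -4.40 and -4.60 in MDP, against -2.81 and -3.60 in MP, and a difference of -1.30 ± 0.27 (adjusted p = 0.0271). It is better known from brain and lymphoid cells, and its highest mean of the 8 populations was in plasmacytoid dendritic cells (PDC), at -0.77. miR-181c, of a family that acts in lymphocyte development, had -3.16 and -3.10 in MDP, against -2.55 and -2.17 in MP (-0.76 ± 0.19, adjusted p = 0.0375). The other 3 members with its seed were not called, at -0.40 (miR-181d), -0.37 (miR-181a) and 0.00 (miR-181b). The 6 lymphocyte miRNAs as a list had 1 lower and 5 not called, while 9.71 percent of all tested miRNAs fell. Their summed signal was 1.13 and 1.27 in MDP, against 1.34 and 1.55 in MP.

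The activation list held 1 call, a fall, among its 3 tested members, while 9.71 percent of all tested miRNAs fell. miR-146b, which damps signalling from Toll-like receptors, had -4.97 and -4.57 in MDP, against -4.08 and -3.78 in MP (-0.84 ± 0.17, adjusted p = 0.0271). miR-146a shares its seed and differs from it at 2 positions, and was at -0.53 ± 0.31 without a call (0.02 after normexp). miR-155, which acts in inflammatory responses and in progenitor expansion, had levels of -3.24 and -3.07 in MDP, against -2.18 and -1.51 in MP. The MDP arrays were both lower by more than 0.8 than the lower MP array, yet the difference of -1.31 ± 0.36 narrowly missed the threshold (adjusted p = 0.0537). Among the alternatives, miR-155 passed only where the test was limited to the 104 miRNAs detected on all 4 arrays (adjusted p = 0.0254). Under the 3 other scalings, 0 members of the list were called.

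**Figure D3:**
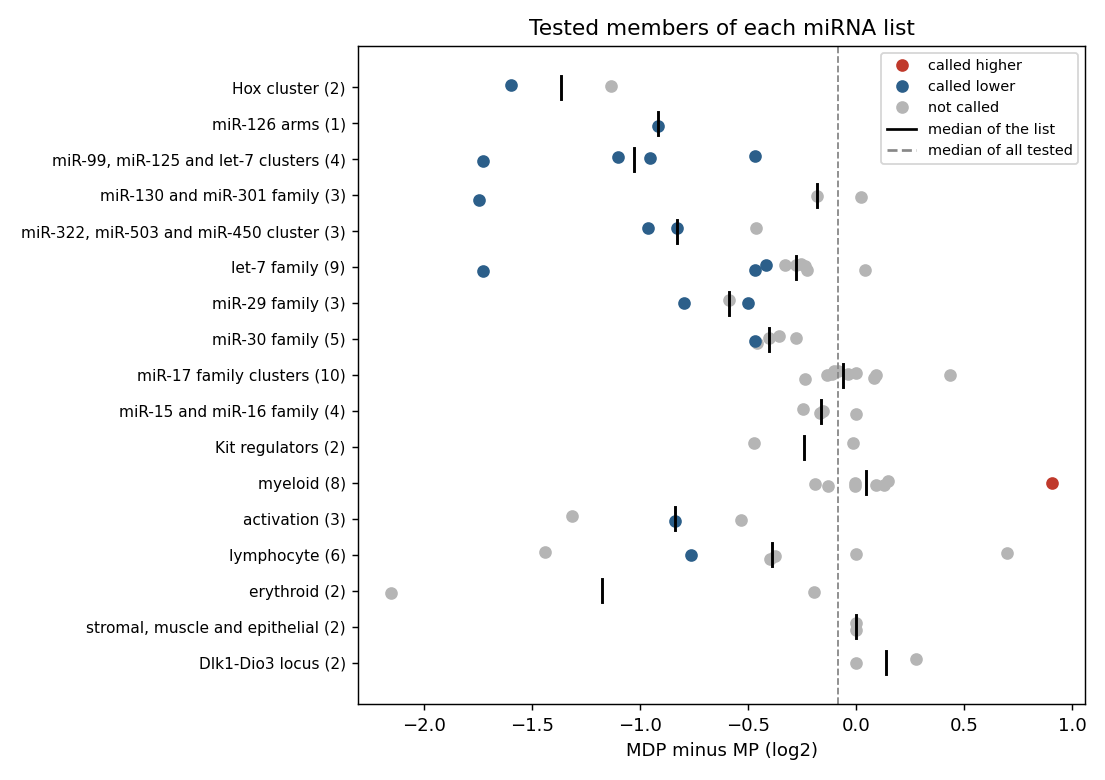
Difference between MDP and MP (log2) of each tested member of the miRNA lists, 1 row per list, coloured where called, with a bar at the list's median and a dashed line at the median of all tested miRNAs (-0.08). Called points stand left of the dashed line in every list that has one except the myeloid list, where the 1 called point, miR-223, stands right of it.

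miR-223 was the single miRNA that rose. It is induced in granulocytes and monocytes and restrains their progenitors' expansion in mice. Its level was 3.13 and 3.41 in MDP, against 2.65 and 2.07 in MP, so both MDP arrays were above both MP arrays. The difference was 0.48 on design 1 and 1.34 on design 2, and 0.91 ± 0.20 over both (adjusted p = 0.0271), a level in MDP 1.88 times that in MP. Both of its probes had a positive difference in both designs. The processed signals before any scaling were 4000 and 3538 in MDP, against 2737 and 2235 in MP, so the groups did not overlap before scaling either. Across alternatives the difference ran from 0.49, under quantile normalization, to 1.21, and it was called in 6 of 16. Its probes map to chrX:93438225-93438244 on the plus strand of mm9.

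The other 7 myeloid miRNAs were not called. Thus 1 of the 8 rose, against 0.571 percent of all tested miRNAs. The list's median was 0.05, with 4 members above 0. It was 0.32, 0.19 and 0.34 under the scaling by all miRNAs, quantile normalization and median scaling. In that order, 7, 6 and 8 members then lay above 0, so the flat picture depends on the scaling. The levels of miR-142-3p, a miRNA of all blood lineages, were 0.47 and -0.03 in MDP, against 0.48 and -0.03 in MP, which is a difference of 0.00 with a 95 percent interval of -0.43 to 0.42. miR-21 was at -0.19 ± 0.38, and miR-23a, miR-24 and miR-27a lay between 0.09 and 0.15.

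No other miRNA was called higher. miR-27b came nearest. Its levels were -1.11 and -1.03 in MDP, against -1.72 and -1.65 in MP, a difference of 0.62 within each design and 0.62 ± 0.17 over both (adjusted p = 0.0518). MDP had the highest mean of all 8 populations for it. It was called under quantile normalization (1.02, adjusted p = 0.0174) and median scaling (0.92, adjusted p = 0.0139). miR-23b, encoded in the same cluster, was at 0.30 ± 0.15 (adjusted p = 0.289), and miR-27a, which differs from miR-27b at 1 position, at 0.13 ± 0.26. miR-342-3p, which is high in monocytes, dendritic cells and lymphocytes, was at 0.70 ± 0.29 (adjusted p = 0.166), with 0.20 on design 1 and 1.20 on design 2. miR-202-3p had the highest positive difference, 0.93 ± 0.35 (adjusted p = 0.148), but its 2 probes disagreed on design 1, at 0.19 and 2.04. The other 5 of the 10 largest positive differences, miR-18a, miR-720, miR-1187, miR-574-5p and miR-669f, lay between 0.28 and 0.43.

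miRNAs known from proliferating progenitors and the regulators of Kit held no call in either direction. Lists this short can hold 0 calls at a share of 10.3 percent, so nothing particular to their members is read from these counts. In the clusters of the miR-17 family, which promote the cell cycle, 0 of 10 tested members were called, against 10.3 percent of all tested miRNAs. Their differences ran from -0.24 (miR-106b) to 0.43 (miR-18a) with a median of -0.06. This median became 0.22, 0.10 and 0.24 under the 3 other scalings. It was also above 0 without MDP replicate 1 (0.09) and with the brightest probe (0.04), so its sign is not settled. miR-221 and miR-222, which repress the transcript of Kit, the receptor by which both populations were sorted, were not called. miR-221 was at -0.01 with a 95 percent interval of -0.37 to 0.35, and miR-222 at -0.47 ± 0.14 (adjusted p = 0.0678). In the Dlk1-Dio3 list, 2 of 23 miRNAs were tested and 0 called, against 10.3 percent of all tested miRNAs.

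By detection alone, differences ran in 1 direction. Of the 604 miRNAs, 104 were detected on all 4 arrays, 8 on both MP arrays and neither MDP array, and 0 on both MDP arrays and neither MP array. The 8 were let-7e, miR-135a*, miR-150, miR-185, miR-331-3p, miR-450a-5p, miR-451 and miR-532-5p. The MDP arrays also had the lower share of spots well above background given above, and its part in this count was not tested. miR-150, a miRNA of mature lymphocytes, had signals of 8.1 and 6.3 in MDP, against 24.2 and 33.6 in MP, and was at least 1.53-fold lower in MDP without passing the test (adjusted p = 0.148). miR-451, which is made in red cell precursors, had signals of 11.1 and 9.5 in MDP, against 217.8 and 15.1 in MP. Its high signal is that of MP replicate 1 alone, on which miR-486, another red cell miRNA, was also detected at 14.5, against 0.6 on MP replicate 2. miR-451 was not called (adjusted p = 0.289). Without MP replicate 1, 15 miRNAs were called between MDP and MP, 12 of them among the 18.

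Since dividing an array by another factor shifts all its miRNAs alike, the order of the differences above the floor does not depend on the factor. Among the 104 miRNAs detected on all 4 arrays, 6 were among the 10 lowest in both designs, namely miR-130a, miR-196b, miR-155, miR-128, miR-10a and miR-125b-5p. Both miR-155 and miR-10a belong to them without having been called. miR-223, miR-27b and miR-720 were among the 10 highest in both. The median difference over the 88 always detected miRNAs was -0.16, and 0.11, 0.07 and 0.14 under the scaling by all miRNAs, quantile normalization and median scaling. The replicate spread was 0.37 in MDP and 0.34 in MP, as the median absolute difference between the 2 arrays, and 0.19 between the within-design differences. Each of the 18 called miRNAs had 2 probes, and all 36 probes had the sign of the call in both designs. Of these probes, 29 were detected on all 4 arrays. A miRNA's level is the mean of the same probes, so their agreement is no separate support for the call.

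**Figure D4:**
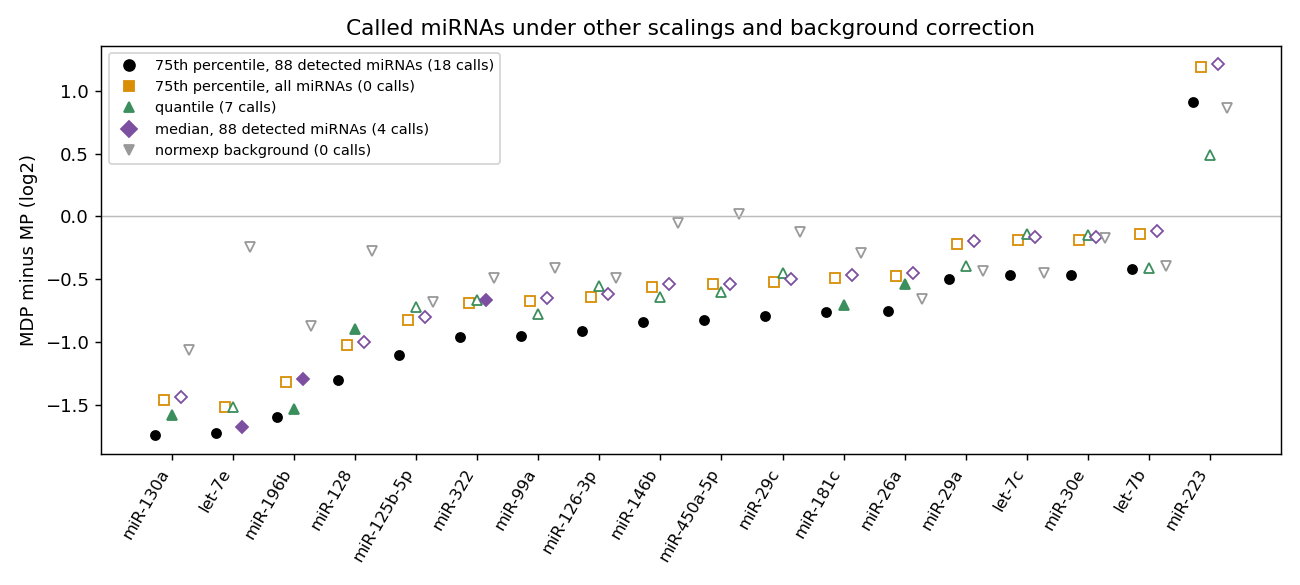
Difference between MDP and MP (log2) of the called miRNAs under the main scaling and the other normalizations, filled where called under that setting. miR-223 stays above 0 under each, and the others stay below 0 except miR-450a-5p at 0.02 after normexp.

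CDP, which also carry CD115 but less CD117, show how the MDP level stands along the gates. Of the 17 miRNAs that fell, 15 had a lower mean in CDP than in MDP, as had 57.7 percent of all 175 tested, and 14 were lower in CDP within both designs, as were 37.1 percent of all. The mean of miR-196b was -1.42 ± 0.19 for MP, -3.02 ± 0.03 for MDP and -4.05 ± 0.27 for CDP (SD, n = 2 each). For miR-130a MP had -1.04 ± 0.57, MDP -2.78 ± 0.26 and CDP -3.76 ± 0.22, and for miR-125b-5p MP had -1.28 ± 0.52, MDP -2.38 ± 0.37 and CDP -3.08 ± 0.13 (SD, n = 2 each). miR-30e had a CDP mean of -2.66, close to -2.70 in MDP, and let-7e was at the floor in both. MP had the highest mean of the 8 populations for 10 of the 17 and for 15.4 percent of all tested miRNAs. The MDP mean was over those of all 5 differentiated populations for 8 of the 17 (35 of all 175) and under all of them for 4 (44 of all 175). These orders are descriptions, since the 17 were chosen by their MDP and MP levels, and nothing particular to them is read from the counts.

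miR-223 followed another order. MP averaged 2.36 ± 0.41, MDP 3.27 ± 0.19 and CDP 2.71 ± 0.10 (SD, n = 2 each). Gr1+ monocytes had the highest mean, 4.42 ± 0.17, followed by CD8+ DC at 3.29 ± 0.08, which does not differ from MDP beyond the spread, and PDC had the lowest, 0.30 ± 0.30 (SD, n = 2 each). Whether the MDP level departs from the mean of MP and CDP was tested for all 175 miRNAs, and 0 passed (0.00 percent, limma, with 9 or 5.14 percent at an unadjusted p under 0.05). miR-223 had the smallest p, with MDP above that mean by 0.74 ± 0.17 (adjusted p = 0.368). This test sets MDP against an average, so it cannot tell whether MDP differs from each of its neighbours. For let-7e the difference from that mean was -0.86, although its MDP and CDP levels were equal, at the floor.

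**Figure D5:**
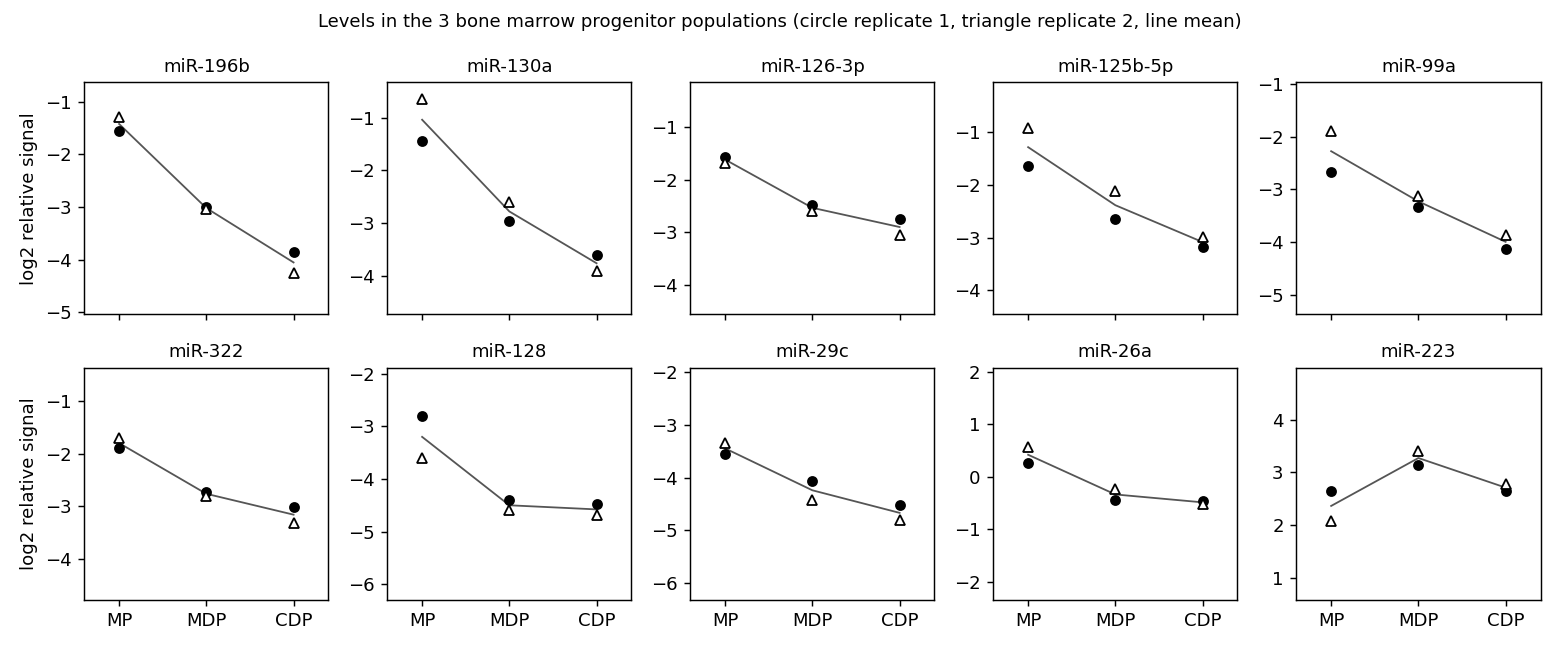
Log2 level of 10 of the called miRNAs in MP, MDP and CDP, 1 panel per miRNA, 1 point per array and a line through the means. The lines of miR-196b, miR-130a and miR-125b-5p go down at each step, and that of miR-223 is highest in MDP.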

How the data were processed

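Total RNA (100 ng, Cy3 label) had been hybridised to Agilent miRNA arrays, 1 sample per array. Per the file headers, spot intensities were background-subtracted with Feature Extraction 10.7.3.1 of Agilent, whereas the submitters' processing notes name version 9.1. The intensity used is the processed signal as deposited, linear and not scaled between arrays. The deposited series tables held the same intensity values at 3 significant digits for all 13715 spots (design 1) and 14635 spots (design 2) of each array.

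Outlier spots were left out, and spots and then probes of a miRNA were averaged. A miRNA counted as detected where at least a share of 0.5 of a probe's spots was well above background. The deposited intensities were divided by the 75th percentile over the 88 miRNAs detected on all 16 arrays, raised to a floor (log2 -5.30 on design 1, -5.78 on design 2) and turned into log2 values. Of the tested miRNAs, 51 and 42 lay at the floor in MDP, against 43 and 32 in MP, and values there have no spread of their own. limma 3.58.1 in R 4.3.3 fitted a mean for each of 8 populations with the array design as a block (8.52 residual degrees of freedom after moderation). Python 3.11.15 and matplotlib 3.10.9 were used besides. The fit was tested on simulated data.

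Same-numbered arrays are pairs, since a replicate number stands for 1 array design. Deviations of same-numbered arrays correlated in all 28 pairs of populations (r from 0.297 to 0.917, and 0.709 for MDP and MP). These correlations cannot show that the pools are paired beyond the shared design. The floor differs between the designs (log2 -5.30 and -5.78), so a miRNA at the floor throughout 2 populations shifts alike in both. Pairing apart from the floor and the design was not tested. Each replicate is a pool labelled as biological. The p-values rest on the spread between the 2 pools of a population, estimated over all 8 populations after the array design is fitted. They do not rest on the MDP and MP pools alone. Named are the called miRNAs, the 10 largest positive and negative differences among miRNAs detected on all 4 arrays with 1 sign in both designs, those detected in 1 population alone, and list members. The comparison and the 17 lists were chosen with earlier results of these data known. Of the 175 tested miRNAs, 141 matched a RefSeq mature miRNA by probe sequence and name. The alternatives tried were other scalings, quantile normalization, normexp (offset 50), no block, fewer arrays, other filters and floors, the brightest probe, the series tables and each MDP and MP array left out.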

Additional observations from a re-analysis of the deposited data

How the results depend on the processing

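Against 18 called miRNAs (1 higher, 17 lower in MDP), the alternatives gave fewer or as many. Scaling by the 75th percentile over all miRNAs, normexp, fitting only the MP, MDP and CDP arrays, fitting only the MP and MDP arrays and testing all 604 miRNAs each gave 0 calls (0 higher, 0 lower), with 21, 5, 40, 38 and 41 miRNAs at an unadjusted p under 0.05 in that order. Quantile normalization gave 7 (2 higher, 5 lower), median scaling 4 (1 and 3), the fit with no replicate block 8 (1 and 7), a floor 2 times as high 8 (1 and 7) and the brightest probe 9 (2 and 7). Testing only the 104 miRNAs detected on all 4 arrays gave 18 (2 and 16), and the values of the series tables gave 18 (1 and 17). Leaving out 1 array gave 0 to 15 calls, 0 to 2 higher and 0 to 13 lower. MDP against the mean of MP and CDP gave 0 calls in the main setting and 0 to 1 with an array left out. The cause of these changes was not tested, except that fits on fewer arrays have fewer residual degrees of freedom and that testing 604 miRNAs adjusts over more. Of the 18 called miRNAs, 1 turned its sign, miR-450a-5p after normexp (0.0194). Of the 63 list members with a difference other than 0, the sign turned for 20 under scaling by all miRNAs, 15 under quantile normalization, 22 under median scaling, 9 after normexp, 7 with the brightest probe and 4 to 12 with 1 array left out. Among named miRNAs, scaling by all miRNAs turned miR-106b (0.0403), miR-130b (0.0962), miR-142-3p (0.274), miR-15a (0.0318), miR-15b (0.126), miR-16 (0.109), miR-181b (0.276), miR-21 (0.0881) and miR-221 (0.265). Median scaling turned the same 9, to 0.0637 (miR-106b), 0.120 (miR-130b), 0.297 (miR-142-3p), 0.0551 (miR-15a), 0.150 (miR-15b), 0.132 (miR-16), 0.299 (miR-181b), 0.111 (miR-21) and 0.289 (miR-221). Quantile normalization turned miR-130b (0.0278), miR-142-3p (0.244), miR-15b (0.0990), miR-181b (0.162), miR-181d (0.162), miR-221 (0.0740), miR-222 (0.0639) and miR-30b (0.242). Normexp also turned miR-146a (0.0212), miR-181b (0.0350) and miR-503 (0.137), and the brightest probe turned miR-142-3p (0.151), miR-181b (0.177) and miR-221 (0.0621). Over the left-out arrays, ranges that crossed 0 were -0.220 to 0.215 (miR-142-3p), -0.0444 to 0.0430 (miR-181b), -0.481 to 0.105 (miR-21), -0.0845 to 0.0622 (miR-221), -0.000254 to 0.261 (miR-27a), -0.330 to 0.382 (miR-301a), -0.0276 to 0.616 (miR-574-5p) and -0.00335 to 0.0902 (miR-98). Signal over background limits let-7e and miR-450a-5p, which MDP arrays did not detect.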
